A study of Mus musculus with 6 samples.

Results

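Respiratory complex I is the first enzyme of the mitochondrial respiratory chain. It oxidises NADH, hands the electrons to ubiquinone and uses the energy to pump protons across the inner membrane. Its core subunits carry out this chemistry. Those of the arm that reaches into the matrix are made from nuclear genes and those of the membrane arm from mitochondrial DNA. Accessory subunits surround the core, and assembly factors help to build the enzyme without remaining in it. Skeletal muscle depends on complex I for sustained ATP supply.

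The nuclear genes of complex I were taken as all mouse gene rows whose name starts with Nduf, without the 1 pseudogene row of that name. This gave 46 of the 52550 genes in the deposited table. They comprised 7 core subunits, 29 accessory subunits, 8 assembly factors of the Ndufaf family, and Ndufa4 and Ndufa4l2, which carry the family name but are not counted among the subunits here. All 46 passed the filter on low counts, as did 13396 genes in all. The members lie on 17 chromosomes, with at most 6 on one, chromosome 17.

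RNA was sequenced from the quadriceps of 3 male FLExDUX4 mice and 3 male WT littermates, both 13 weeks old by the labels, whereas the study's methods name triceps of younger mice. FLExDUX4 mice are hemizygous for a human DUX4 transgene placed in reverse between lox sites at the Rosa26 locus, with leaky expression and, here, no Cre driver. The assay was QuantSeq, which reads the 3′ end of polyadenylated transcripts and so gives about 1 read a transcript whatever its length. Only the raw counts summed over each genotype were used, because the names of the columns for single mice match no label, so each group is 1 value, the spread between mice was not analysed here, no test was run, and a single mouse could set any difference described. The totals were 13110125 counts on genes for FLExDUX4 and 18367364 for WT. No row of the table is named for DUX4, so the transgene could not be checked. Of the skeletal muscle markers, Acta1, Ckm, Mylpf, Tnnt3 and Pvalb together took 8.08% of counts in FLExDUX4 and 8.13% in WT. The heart markers Myh6, Nppa and Tnnt2 had at most 53 counts each, with Nppa at 0 in FLExDUX4 and 1 in WT.

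Group totals were scaled with TMM, which sets the bulk of genes to no difference, and are given as CPM, the count on a gene out of each 1000000 scaled counts, and as the log2 ratio of FLExDUX4 to WT. The 95% Clopper-Pearson interval of each ratio covers counting error only. Shares of counts use the unscaled totals and can differ in direction from the scaled ratio. The summed skeletal muscle markers, for example, had a log2 ratio of 0.021 (counting interval 0.018 to 0.025). A gene was counted as past the threshold when it was at least 25% higher in FLExDUX4 or at least 20% lower, the same fold in either direction and a log2 ratio beyond 0.32 in size.

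Together the 46 genes had 130715 counts in FLExDUX4 and 190226 in WT, which was 0.997% and 1.04% of all counts on genes. The log2 ratio of these sums was -0.025 (counting interval -0.035 to -0.015). The median of the single ratios was -0.035, with a range from -0.43 to 0.70, beside a median of -0.001 over all genes tested. Of the 46 genes, 27 had a ratio below 0 and 19 above it. With other scalings on genes 26 to 32 were below 0, and with the totals of the added spike-in RNAs 45 were, since that scaling moved every ratio by -0.28. Past the threshold, 3 members were lower, while 22.8% of all genes tested were lower by that much, and 1 member was higher, beside 22.6% of all genes. Those background shares rest mostly on genes with few counts. Among the 1864 genes with at least 1500 counts in both groups together, 3.27% were lower and 3.70% higher by this fold, and none of the 37 members with that many counts was either with TMM scaling. The counting interval lay below 0 for 18 members and above 0 for 8, whereas it lay below 0 for 20.6% and above 0 for 20.5% of all genes tested. Among the genes with at least 1500 counts these shares were 26.3% and 24.7%.

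**Figure D1:**
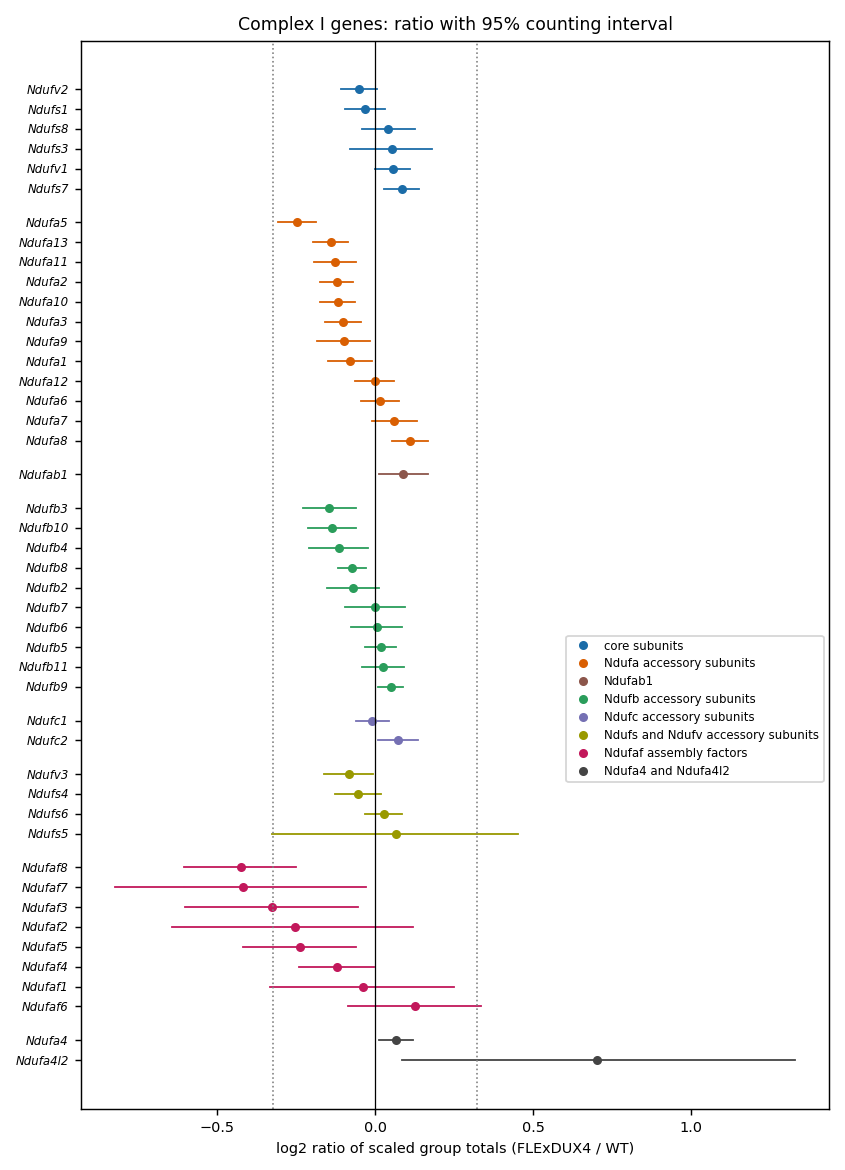
Log2 ratio of TMM-scaled group totals (FLExDUX4 / WT, x axis) for 45 of the 46 genes, grouped by role and sorted within it. Points are ratios, bars are 95% counting intervals and dotted lines mark the threshold. Core subunits lie from -0.05 to 0.084, and 7 of 8 Ndufaf assembly factors lie below 0.

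The 7 core subunits encoded in the nucleus had nearly the same levels in both genotypes. Their summed log2 ratio was 0.035 (counting interval 0.011 to 0.058), 5 of the 7 were above 0 and none reached the threshold. With spike-in scaling all 7 were below 0 and 1 of them, Ndufv2, was past the threshold at -0.33, beside 45% of all genes tested. Of the 1864 genes with at least 1500 counts, 701 were lower by that fold with spike-in scaling. At the tip of the matrix arm, Ndufv1, which binds NADH and the flavin, had 336 CPM in FLExDUX4 and 323 CPM in WT, a ratio of 0.056. Its neighbour Ndufv2, an iron-sulfur protein, had 318 CPM against 329 CPM, and its interval of -0.11 to 0.007 held 0. Ndufs1, which holds further iron-sulfur clusters of this module, had 260.0 CPM against 266 CPM. The intervals of all 3 genes held 0.

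The other core subunits belong to the part of the matrix arm that passes electrons on to ubiquinone. Ndufs7, an iron-sulfur protein close to the site where ubiquinone is reduced, had 343 CPM in FLExDUX4 and 323 CPM in WT, a ratio of 0.084 (counting interval 0.028 to 0.14). Its interval lay above 0, and its ratio was below 0 with spike-in scaling, at -0.19. Ndufs8, which relays electrons through iron-sulfur clusters, had a ratio of 0.042 from 2020 and 2806 counts. Ndufs3, a matrix-arm subunit with no cofactor, had a ratio of 0.052 from 834 and 1151 counts. An annotated processed pseudogene, Gm12251, matches 226 of the last 300 bases of the Ndufs3 transcript at 99.6% identity, and so Ndufs3 reads could be split in the authors' counting.

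Among the accessory subunits, those of the Ndufa series had the lower values. Of 12 Ndufa accessory subunits, 9 had a ratio below 0, the median was -0.10, and the ratio of their sums was -0.073 (counting interval -0.091 to -0.056). The counting interval lay below 0 for 8 of the 12 and above 0 for 1, beside 26.3% and 24.7% of the genes with at least 1500 counts. The lowest was Ndufa5 (chromosome 6 of GRCm38, 24518666 to 24528013), which sits on the matrix arm near the ubiquinone site, with 269.9 CPM in FLExDUX4 and 320.2 CPM in WT, a ratio of -0.25 (counting interval -0.31 to -0.19). It was the lowest of all 36 subunits. The highest was Ndufa8, on the side facing the intermembrane space, with 337 CPM against 312 CPM and a ratio of 0.11 (counting interval 0.053 to 0.17), or -0.17 with spike-in scaling. The ratios of the 2 genes lay on opposite sides of 0 with intervals far apart, although the spread between mice behind them was not analysed here.

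The Ndufb subunits, which belong to the membrane arm, lay closer to 0. Of the 10, 6 were below 0, the median was -0.035 and the ratio of the sums was -0.024 (counting interval -0.043 to -0.004). Ndufb3 was the lowest, with 143 CPM in FLExDUX4 and 159 CPM in WT and a ratio of -0.14 (counting interval -0.23 to -0.061). Ndufb9, at the far end of the membrane arm, was the highest, with 658 CPM against 636 CPM and a ratio of 0.049 (counting interval 0.009 to 0.089). Ndufab1, the mitochondrial acyl carrier protein, which also serves fatty acid synthesis and iron-sulfur cluster assembly, had 2287 counts against 3074, a ratio of 0.090 (counting interval 0.011 to 0.17). Both Ndufb9 and Ndufab1 were below 0 with spike-in scaling, at -0.23 and -0.19.

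The remaining accessory subunits differed little. Ndufc1 had a ratio of -0.009 and Ndufc2 of 0.072, both small subunits of the membrane arm. Of Ndufs4, Ndufs5, Ndufs6 and Ndufv3, the lowest was Ndufv3, at the NADH end of the enzyme, with 177 CPM against 188 CPM and a ratio of -0.084 (counting interval -0.16 to -0.007). Ndufs5 had the highest ratio of these 4, 0.067 (counting interval -0.33 to 0.45), but only 98 and 134 counts, whereas the other 35 subunits had at least 1151 counts in WT. A processed pseudogene, BC002163, matches 186 of the last 300 bases of the Ndufs5 transcript with no mismatch and had 9 and 7 counts. How reads that fit both places were counted is not given in the sources used here, and whether the low count of Ndufs5 comes from this was not tested. Across all 36 subunits the median ratio was -0.005, none reached the threshold in either direction and the largest size was 0.25. With spike-in scaling all 36 were below 0 and 16 were past the threshold on the lower side, 8 of them Ndufa and 5 Ndufb subunits. By that fold 45% of all genes tested were lower with this scaling, and 701 of the 1864 genes with at least 1500 counts.

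Each member's interval was also set beside the summed ratio of the other subunits. For 23 of 46 members the interval held that value. It lay below the value for 13 members, of which 6 were Ndufa subunits, 4 were Ndufaf factors and 3 were Ndufb subunits. It lay above the value for 10 members, of which 3 were core subunits. No share over all genes was computed for that value. Set beside 0 instead, the interval lay below for 26.3% and above for 24.7% of the genes with at least 1500 counts. Because the intervals leave out the spread between mice, these counts describe the totals and are no test of unequal change.

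**Figure D2:**
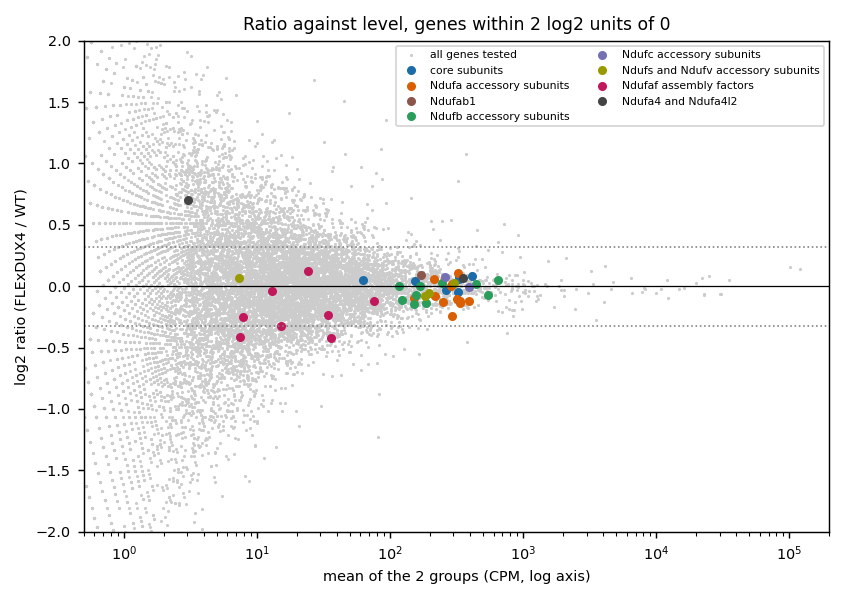
Log2 ratio (FLExDUX4 / WT, y axis) against the mean of both groups in CPM (x axis, log scale) for all genes tested in grey and the 46 complex I genes in colour by role. Dotted lines mark the threshold, and 503 genes with ratios beyond 2 in size lie outside the axis. The subunits sit in a narrow band around 0. The assembly factors other than Ndufaf4, Ndufa4l2 and the subunit Ndufs5 sit where counts are fewer and all genes spread more.

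The Ndufaf assembly factors had lower ratios than the subunits. Of the 8 Ndufaf genes, 7 had a ratio below 0, the median was -0.25 and the ratio of the sums was -0.19 (counting interval -0.26 to -0.12), from 2596 counts in FLExDUX4 and 4229 in WT. With TMM scaling the 3 members past the threshold on the lower side were all Ndufaf genes, and no Ndufaf gene was higher by that fold. With spike-in scaling 22 members were lower by that fold, of which 6 were Ndufaf genes and 16 were subunits, and 45% of all genes tested were lower by as much. The 8 Ndufaf genes had from 159 to 1475 counts in WT. Of the 6288 genes with 200 to 2500 counts in both groups together, 14.1% were lower and 14.3% higher by this fold with TMM scaling. Their median ratio was 0.001. With spike-in scaling 2729 of these 6288 genes were lower by this fold. The counting interval lay below 0 for 5 of the 8 Ndufaf genes and above 0 for 0, beside 20.4% and 21.3% of those 6288 genes. The difference between the Ndufaf genes and the subunits was not tested, since no values of single mice were used.

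Ndufaf8 (chromosome 11 of GRCm38, 120098928 to 120100705, protein-coding) had the lowest ratio of all members. It had 30.6 CPM in FLExDUX4 and 41.1 CPM in WT, a ratio of -0.43 (counting interval -0.60 to -0.25). Ndufaf8 stabilises Ndufaf5, an enzyme that hydroxylates the core subunit Ndufs7. Ndufaf5 itself had 406 counts against 685, a ratio of -0.24 (counting interval -0.42 to -0.059). With TMM scaling both genes of this pair had ratios below 0 and their client Ndufs7 one above it, whereas all 3 were below 0 with spike-in scaling.

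Ndufaf7, a methyltransferase that acts in assembly, had few counts. With 83 in FLExDUX4 and 159 in WT its ratio was -0.42, and the interval reached from -0.82 to -0.030. Ndufaf3 and Ndufaf4 act together early in building the ubiquinone-binding part. In the WT total Ndufaf3 (chromosome 9 of GRCm38, 108565537 to 108567434) was counted 314 times and in the FLExDUX4 total 175 times, for a log2 ratio of -0.33 (counting interval -0.60 to -0.056), just past the threshold. With a pseudocount of 2 the ratio of Ndufaf3 fell just short of it. Ndufaf4, the assembly factor with the most counts, had 948 against 1475, a ratio of -0.12 (counting interval -0.24 to -0.003).

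The remaining assembly factors were Ndufaf2, Ndufaf1 and Ndufaf6. Ndufaf2, a paralogue of the subunit Ndufa12 that acts late in assembly, had 93 counts against 159 and a ratio of -0.25, just short of the threshold, with an interval of -0.64 to 0.12. Ndufaf1, which acts on the membrane arm, had 166 counts against 244 and a ratio of -0.038 (counting interval -0.33 to 0.25). Ndufaf6 was the exception in direction, with 328 counts against 430 and a ratio of 0.13 (counting interval -0.086 to 0.34), which was -0.15 with spike-in scaling. The intervals of these 3 genes held 0.

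The 250 bases upstream of the RefSeq start of the 3 members at least 20% lower are shown because these genes carry the largest differences of the part of the family that builds the enzyme. In GRCm38.p6 they are chr11:120098684-120098933 on the plus strand for Ndufaf8, chr17:78936885-78937134 on the plus strand for Ndufaf7 and chr9:108567437-108567686 on the minus strand for Ndufaf3. Capitals mark matches on either strand to the motifs listed after them.
Ndufaf8: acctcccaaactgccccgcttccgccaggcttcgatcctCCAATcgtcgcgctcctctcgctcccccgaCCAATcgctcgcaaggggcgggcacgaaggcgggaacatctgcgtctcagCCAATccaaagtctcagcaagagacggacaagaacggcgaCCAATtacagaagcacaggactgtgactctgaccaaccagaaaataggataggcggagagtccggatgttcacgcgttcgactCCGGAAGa
Ndufaf7: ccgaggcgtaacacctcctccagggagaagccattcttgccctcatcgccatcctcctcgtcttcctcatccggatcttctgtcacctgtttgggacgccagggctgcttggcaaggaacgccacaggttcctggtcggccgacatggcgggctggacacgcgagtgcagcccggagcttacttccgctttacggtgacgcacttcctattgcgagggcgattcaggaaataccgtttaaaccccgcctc
Ndufaf3: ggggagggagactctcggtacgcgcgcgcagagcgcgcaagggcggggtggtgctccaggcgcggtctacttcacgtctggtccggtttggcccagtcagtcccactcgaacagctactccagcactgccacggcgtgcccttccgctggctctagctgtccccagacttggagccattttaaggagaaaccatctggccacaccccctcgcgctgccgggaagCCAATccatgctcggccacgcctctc
The search used CCAAT (the CCAAT box), CCGGAAG (ETS factors), TGACCTTG (estrogen-related receptors), GCGCATGCG (NRF1) and AAGATGGCG (YY1), none of which contains another. The Ndufaf8 sequence held 4 CCAAT matches, 211, 181, 131 and 91 bases upstream of the start, and an ETS match at 8 bases upstream. Ndufaf3 held 1 CCAAT match, 26 bases upstream, and Ndufaf7 held no match in this window. RefSeq upstream sequences were at hand for 40 members. Among these, CCAAT was found for 14 (35.0%), beside 37.5% of 27025 genes with such a sequence, and CCGGAAG for 5 (12.5%), beside 7.83%. The NRF1 motif was found for 3 members (7.50%), beside 1.64%, the estrogen-related receptor motif for 1, beside 1.51%, and the YY1 motif for 0, beside 0.710%. A match of letters is a description and not a binding site. The upstream sequences of members were richer in G and C, with a median of 58.2% against 52.0%.

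Ndufa4 and Ndufa4l2 share a name with the family. Ndufa4, now known as a subunit of cytochrome c oxidase, had 361 CPM in FLExDUX4 and 345 CPM in WT, a ratio of 0.067 (counting interval 0.012 to 0.12), or -0.21 with spike-in scaling. Ndufa4l2 (chromosome 10 of GRCm38, 127514967 to 127517154), a relative that is induced by hypoxia and lowers complex I activity in other cells, was the only member higher by the threshold or more. It had 49 counts in FLExDUX4 and 43 in WT, which after scaling is 3.78 CPM and 2.32 CPM and a ratio of 0.70 (counting interval 0.084 to 1.33). It was also the only member above 0 with spike-in scaling, at 0.43, past the threshold as were 12.9% of all genes tested on the higher side. It is the member with the fewest counts, and at least 50 counts in each group were needed in one alternative, which left it out. An exon of Shmt2 lies on the opposite strand within 500 bases of its 3′ end.

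Assembly factors outside the Nduf names went both ways with TMM scaling, and 10 of 11 were below 0 with spike-in scaling. Of 12 listed, 11 had a row and were tested. Of these, 4 had a ratio below 0 and 7 above it, with a median of 0.022 under TMM. Past the threshold 2 were lower, Tmem70 (ratio -0.38, counting interval -0.56 to -0.21) and Tmem126b (-0.36, counting interval -0.59 to -0.14), and 1 was higher, Foxred1 (0.43, counting interval 0.024 to 0.84, from 100 and 106 counts), beside 22.8% and 22.6% of all genes tested. Among the genes with 200 to 2500 counts these shares were 14.1% and 14.3%. With spike-in scaling 2 were lower and none was higher by that fold, Foxred1 being at 0.16. Lower and higher by as much were 45% and 12.9% of all genes tested, and 2729 and 247 of the 6288 genes with 200 to 2500 counts. Tmem70 also serves assembly of ATP synthase, and Tmem126b belongs to the complex that builds the membrane arm with Ndufaf1. Summed, the 11 genes had a ratio of -0.061 (counting interval -0.13 to 0.010).

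The complex I subunits encoded in mitochondrial DNA took 7.13% of counts on genes in FLExDUX4 and 7.38% in WT. After TMM scaling the ratio of their sums was -0.020 (counting interval -0.023 to -0.016). Of 7, 6 were tested, 3 below 0 and 3 above it, and mt-Nd4l had 0 counts in both groups. mt-Nd1 had a ratio of 0.063 (counting interval 0.057 to 0.070) and mt-Nd4 of -0.068 (counting interval -0.075 to -0.062), so these abundant transcripts lay on opposite sides of 0 by small amounts, and both were below 0 with spike-in scaling, at -0.21 and -0.34. mt-Nd3 had a ratio of 0.38 (counting interval 0.29 to 0.47) from 1937 and 2134 counts, past the threshold with TMM scaling but not with spike-in scaling, at 0.10. With TMM scaling 22.6% of all genes tested and 3.70% of those with at least 1500 counts were higher by that fold. With spike-in scaling 3 of the 6 were lower by it, beside 45% of all genes tested and 701 of the 1864 genes with at least 1500 counts.

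For the nuclear genes of complexes II to V, 45 were listed and 43 tested. Their median was 0.011 and the ratio of their sums -0.012 (counting interval -0.019 to -0.005), beside -0.025 for the 36 complex I subunits. With TMM scaling none was past the threshold on the lower side and 1 on the higher side, beside 22.8% and 22.6% of all genes tested. With spike-in scaling 12 were lower, beside 45%. Their median count in WT was 7954. Of the 1864 genes with at least 1500 counts, 3.27% were lower and 3.70% higher with TMM scaling, and 701 were lower with spike-in scaling. The 1 higher gene was Atp5s, which entered the list because its name starts with Atp5 and was singled out after its value was seen. It had 108 counts in FLExDUX4 and 103 in WT and a ratio of 0.58 (counting interval 0.18 to 0.99), which fell short of the threshold with spike-in scaling, at 0.31. The difference between the sets was not tested. Of 7 regulators of mitochondrial genes, 5 were below 0, with a median of -0.033, and 1 was lower and 1 higher past the threshold, beside 22.8% and 22.6% of all genes tested. Of the 6288 genes with 200 to 2500 counts, 14.1% were lower and 14.3% higher. With spike-in scaling 3 regulators were lower and none was higher by that fold, beside 45% and 12.9% of all genes tested. Of those 6288 genes, 2729 were lower and 247 higher with that scaling. Ppargc1a, which encodes the coactivator PGC-1α, had 1101 counts against 1194 and a ratio of 0.40 (counting interval 0.28 to 0.52), or 0.12 with spike-in scaling, short of the threshold. Its relative Ppargc1b had 295 against 587 and a ratio of -0.47 (counting interval -0.68 to -0.27). Esrra, the estrogen-related receptor alpha, had a ratio of -0.002.

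**Figure D3:**
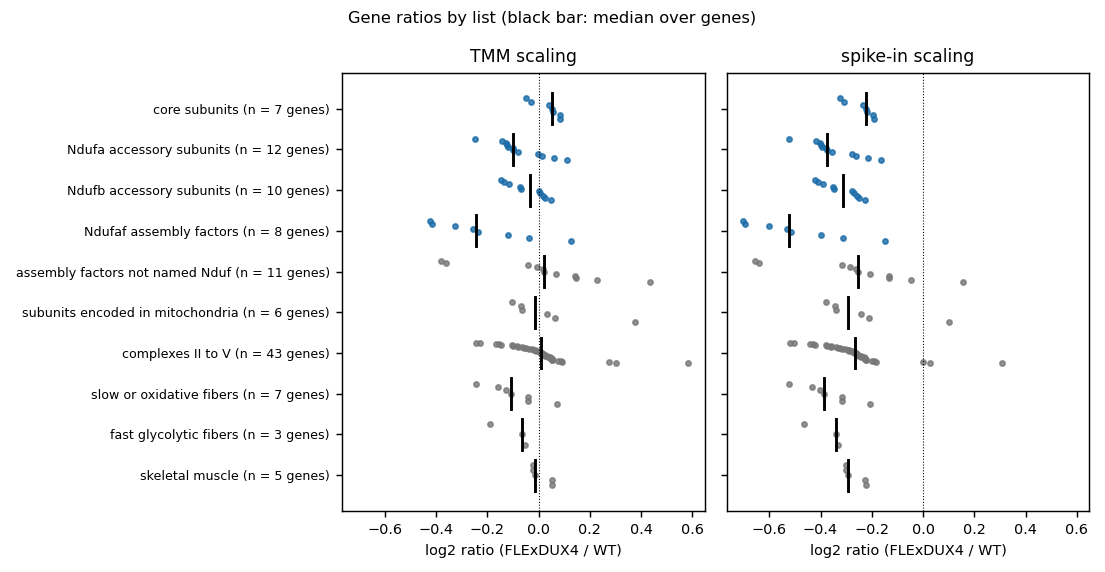
Log2 ratio (FLExDUX4 / WT, x axis) of each gene in 10 lists (y axis) with TMM scaling on the left and spike-in scaling on the right. Points are genes and black bars medians. The order of the lists is the same in both panels, all values lie 0.28 lower on the right, and the Ndufaf assembly factors have the lowest median, -0.25 with TMM scaling.

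Complex I content differs between muscle fiber types, so fiber markers are given beside these values. The 7 markers of slow or oxidative fibers took 0.187% of counts in FLExDUX4 and 0.201% in WT, and 6 of the 7 had a ratio below 0, with a median of -0.11. Myh2, the myosin of type IIa fibers, had a ratio of -0.039 and Myl3 of -0.16. The 3 markers listed for fast glycolytic fibers, Myh4, Myh1 and Tnni2, took 4.13% and 4.43%, and all 3 were below 0, from -0.19 to -0.055. The lowest was Myh1, the myosin of type IIx fibers, which the study places with type IIa in the oxidative part of type II. Both fiber lists were thus slightly lower in FLExDUX4 than in WT, as were the summed complex I subunits. In bulk muscle, fewer cells of a type and less RNA a cell cannot be told apart. Markers of red blood cells took 0.126% of counts in FLExDUX4 and 0.102% in WT, and those of adipocytes 0.038% and 0.031%, with 4 of 4 and 5 of 6 genes above 0, or 3 in each list with spike-in scaling. Endothelial markers took 0.015% and 0.017% and leukocyte markers 0.0046% and 0.0047%, with 2 of 3 below 0 in each. No marker of these 4 lists was at 0. The part of any of them in the complex I values was not tested.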

How the data were processed

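Lexogen made QuantSeq 3′ libraries from total muscle RNA. The authors trimmed reads with Cutadapt 1.16 and aligned them with STAR 2.5.3a to GRCm38 joined to ERCC and SIRV spike-in sequences. The submitters' processing notes also list featureCounts 1.6.2. The deposited values used here are raw counts per gene, summed over the 3 mice of a genotype. The table also holds 6 columns per sample whose names match no label, which were not used, and the authors' own means, fold changes and p-values, which were not used either. The planned edgeR test across mice was therefore not run.

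Spike-ins were kept out of the totals. In edgeR 4.0.16, run in R 4.3.3, genes were kept by filterByExpr and TMM factors computed, with a pseudocount of 0.5 for ratios of single genes. Intervals were checked on simulated data with 200 changed genes, drawn without spread between mice, so the check covers counting error only. Coordinates and overlaps are from GENCODE on GRCm38, copies were sought with blastn 2.17.0 (at least 97% identity over 70 bases), and upstream sequences are from RefSeq, which the table lacked for 6 members, among them Ndufa2, Ndufa4l2, Ndufaf6, Ndufb9 and Ndufs1.

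Members and lists were chosen with earlier results of these data known. Core subunits and assembly factors were named, apart from 1 member that is counted in the summaries but not reported here singly, as were accessory subunits past the threshold (none) and the highest and lowest of each series, and at most 4 genes of other lists, apart from the skeletal muscle markers, all of which were given. Scaling, filter, pseudocount, fold and membership were varied. Coa1 had no row. Dmac1 and Dmac2 were read from the rows Tmem261 and Atp5sl. Of the 46 members, 37 have the same start in GENCODE and in the deposited table.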

Additional observations from a re-analysis of the deposited data

How the results depend on the processing

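No paired analysis was possible because columns for single mice could not be tied to labels. Leaving out a replicate, the edgeR test and DESeq2 were likewise not run. The median log2 ratio of members, -0.035, became -0.051 with upper-quartile scaling, -0.065 with gene totals, -0.311 with spike-in totals, -0.051 with at least 50 counts in each group, -0.005 for the subunits alone and -0.0087 for members with at least 1500 counts. The ratio of the sums, -0.025, became -0.041, -0.055, -0.301 and -0.038 under the first 4 of these. In place of 3 members at least 20% lower, there were 22 with spike-in totals, where the share over all genes rose from 22.8% to 45%, 2 with a pseudocount of 2, where Ndufaf3 lost its call at -0.32, 0 at 1.5-fold, 0 among the subunits and 0 with at least 1500 counts. The 1 higher member became 0 with at least 50 counts, among the subunits and with at least 1500 counts. The alternative of at least 1500 counts, and both ranges of counts used for background shares, were chosen after seeing the data. Scaling moves all genes alike, so the distance between Ndufaf genes and subunits does not depend on it, but the depth limits single assembly factors. RLE, scaling without mitochondrially encoded genes, no filter and, apart from that call, a pseudocount of 2 left these results within counting error or 1.5 times. Of the 46 single ratios, 40 moved beyond their counting interval with spike-in totals and 0 did under the other scalings, filters and pseudocount.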

Other observations

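Several members share a start region with a gene on the other strand. For 13 of 46, a protein-coding gene starts within 500 bases in the opposite direction. The share of all genes with such a neighbour was not computed. Tepsin, 197 bases from Ndufaf8, had 50 counts in FLExDUX4 and 104 in WT and a log2 ratio of -0.53 (counting interval -1.06 to -0.040), the same direction as Ndufaf8. Cebpz, 70 bases from Ndufaf7, had 355 counts against 504 and a ratio of 0.011 (counting interval -0.19 to 0.21), unlike Ndufaf7. Asb15, 131 bases from Ndufa5, had 506 against 637 and a ratio of 0.18 (counting interval 0.013 to 0.35), opposite to Ndufa5 with TMM scaling. With spike-in scaling, which moves every ratio by -0.28, Asb15 and Cebpz lay below 0, as did Ndufa5 and Ndufaf7. Esf1, 85 bases from Ndufaf5, had a ratio of -0.076 (counting interval -0.23 to 0.076). Wdr4, 135 bases from Ndufv3, had 18 counts against 66 and a ratio of -1.33 (counting interval -2.20 to -0.59), the same direction as Ndufv3. Tatdn1, 18 bases from Ndufb9, had 44 against 110 and a ratio of -0.80 (counting interval -1.34 to -0.29), opposite to Ndufb9 with TMM scaling only. Whether these pairs vary together across mice was not tested.

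At the 3′ end, where QuantSeq reads fall, 7 members have an exon of another gene on the opposite strand within 500 bases and 0 have one on the same strand. Among the assembly factors these are Ndufaf3, beside Impdh2, and Ndufaf2, beside a long noncoding RNA. QuantSeq keeps the strand, but the strand setting of the counting is not given in the sources used here. Near-identical annotated copies were found for 4 members, Ndufb11, Ndufb3, Ndufs3 and Ndufs5, and the copies had at most 34 counts in a group.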
